A study of Mus musculus with 72 samples.

Results

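The clustered histone genes of the mouse were the genes whose name on the array began with Hist1h, Hist2h, Hist3h or Hist4h, and 46 of the 31130 gene names on the array met this rule. They were represented by 51 probes, and 5 of the genes had more than 1 probe, of which the brightest was taken. By gene cluster, 36 lay in the Hist1 group, 8 in Hist2, 1 in Hist3 and 1 in Hist4. By the histone they encode, the array carried 5 H1, 13 H2a, 11 H2b, 8 H3 and 9 H4 genes. Of the 46, 39 were detected and 38 were tested: 3 H1, 12 H2a, 8 H2b, 6 H3 and 9 H4 genes.

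Blood was taken by cardiac puncture from young adult male C57BL/6 mice, 1 mouse per array, after whole-body exposure to neutrons from an accelerator source or to x-rays, or after sham exposure. Mice received 0.25 or 1 Gy of neutrons or 1 or 4 Gy of x-rays, and were sampled on day 1, 3 or 7. On day 1 there were 5 sham controls, 6 mice given 0.25 Gy neutrons, 6 given 1 Gy neutrons, 6 given 1 Gy x-rays and 5 given 4 Gy x-rays. On day 3 there were 5 controls, 6 mice given 0.25 Gy neutrons and 5 given 1 Gy x-rays, and on day 7 the same exposures as on day 1 comprised 6 controls and 5, 6, 5 and 6 mice. The comparisons asked how dose, radiation quality and time since exposure altered blood gene expression, and all exposures of a day were set against the same control mice. Levels are given as log2 signal minus the median of the detected probes of the array, so that every change is relative to the rest of the transcripts measured, and a difference between groups is a log2 fold change. In whole blood, fewer cells of a type and less RNA per cell cannot be told apart.

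Core histones H2a, H2b, H3 and H4 form the protein spool around which DNA is wound, and H1 binds the linker DNA between spools. The clustered genes are transcribed mainly in S phase, when new DNA must be packaged, and their mRNAs as a rule end in a conserved stem-loop rather than a poly(A) tail. The stem-loop is bound by SLBP and governs processing, translation and rapid decay of the mRNA when replication stops. Most mature blood cells do not divide, and immature red cells and platelet precursors carry RNA made in the bone marrow. In differentiating cells some clustered genes also give longer, polyadenylated transcripts that run past the stem-loop. The labelling kit named for these samples starts from an oligo(dT) primer, and the share of signal that came from tailed or untailed forms was not tested.

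Near-identical copies limit what a probe can name. Of the 38 chosen probes, 14 are listed against several RefSeq transcripts, and the values of such genes are uncertain as values of a single copy. The 5 H2a probes below are shown because all 5 genes were called together on day 7 after 1 Gy neutrons. Each is 60 bases long, each ends at the stop codon, in capitals, and all share the run atccaggccgtgctgctgcccaagaagac of 29 bases.
Hist1h2af: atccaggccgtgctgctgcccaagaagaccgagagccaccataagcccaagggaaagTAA
Hist1h2ah: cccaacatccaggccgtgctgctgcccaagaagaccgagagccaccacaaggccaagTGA
Hist1h2ak: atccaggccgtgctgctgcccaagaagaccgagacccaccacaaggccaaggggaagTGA
Hist2h2aa2: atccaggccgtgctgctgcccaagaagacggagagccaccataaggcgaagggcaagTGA
Hist2h2ac: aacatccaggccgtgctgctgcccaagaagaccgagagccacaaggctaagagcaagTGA
At the best offset without gaps the Hist1h2af, Hist1h2ah, Hist1h2ak and Hist2h2aa2 probes were 90.7 to 94.4% identical to each other, and the Hist2h2ac probe was 71.9 to 77.2% identical to them. Letters past a deletion then count as out of step, and the Hist2h2ac letters match those of Hist1h2af beyond the shared run. On mm9, the build of the array's annotation, Hist1h2af lies at chr13:23626113-23626172 on the plus strand, and Hist1h2ah at chr13:22127035-22127094, Hist1h2ak at chr13:21845304-21845363 and Hist2h2ac at chr3:96024378-96024437 on the minus strand. The annotation places the Hist2h2aa2 probe at chr13:51298057-51298116, off chromosome 3, where RefSeq lists that gene.

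Other probes reached the 3′ end signal itself. Of the chosen probes, 4 held the whole stem-loop and 6 held at least some of its bases, and the 30-base stretches below show it in capitals, because these genes were among those called on day 7 and because the shared signal is what marks the family.
Hist2h2bb: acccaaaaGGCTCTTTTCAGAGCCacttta
Hist1h3a: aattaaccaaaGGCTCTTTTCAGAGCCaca
Hist1h3i: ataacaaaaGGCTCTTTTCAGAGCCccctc
Hist1h4m: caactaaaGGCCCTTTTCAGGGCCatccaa
Hist1h2ab: gaaagttaaccaaaacaaaGGCTCTTTTCA
Hist1h2ae: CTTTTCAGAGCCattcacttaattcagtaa
These stretches lie, on mm9, at chr3:96074086-96074115 (plus strand) for Hist2h2bb, chr13:23853756-23853785 for Hist1h3a, chr13:21874784-21874813 for Hist1h3i, chr13:21923661-21923690 for Hist1h4m and chr13:23662519-23662548 for Hist1h2ae (minus strand), and chr13:23843422-23843451 (plus strand) for Hist1h2ab. The Hist1h2ab probe stops inside the stem-loop and the Hist1h2ae probe starts inside it and runs on into sequence that a transcript cut at the usual site would lack.

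Upstream, the members shared promoter words. In the RefSeq GRCm38.p6 windows of 300 bases around the start, which 40 of the 46 members had, the letters CCAAT were found on either strand in 34 (85%), against 41.1% of 27025 genes. They were in 5 of 5 H1, 13 of 13 H2a, 8 of 8 H2b and 6 of 6 H3 windows, but in 2 of 8 H4 windows. The octamer ATTTGCAT, a word read by the octamer-binding factor that Pou2f1 encodes, was found in 12 members (30%) against 1.97% of all genes, in 6 of 13 H2a and 6 of 8 H2b windows and in no H1, H3 or H4 window. TATAAA was found in 24 members (60%) against 15.7%. The pair of H2b promoters below, the 200 bases before the start, differ in these words and belong to genes described below, with CCAAT and ATTTGCAT (either strand) in capitals.
Hist1h2bp: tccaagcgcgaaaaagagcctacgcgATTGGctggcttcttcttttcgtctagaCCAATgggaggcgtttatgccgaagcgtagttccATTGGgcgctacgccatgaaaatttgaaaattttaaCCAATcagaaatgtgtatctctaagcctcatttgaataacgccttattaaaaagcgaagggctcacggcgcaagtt
Hist2h2bb: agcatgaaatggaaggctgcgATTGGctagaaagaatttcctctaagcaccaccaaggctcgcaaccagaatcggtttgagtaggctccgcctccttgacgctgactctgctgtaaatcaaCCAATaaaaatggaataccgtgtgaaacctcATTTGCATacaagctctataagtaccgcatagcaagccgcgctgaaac
Hist1h2bp (RefSeq H2bc22, chr13:21787288-21787487, plus strand) held 4 CCAAT words and no octamer, and Hist2h2bb (RefSeq H2bc18, chr3:96269500-96269699, plus strand) held 2 CCAAT words and 1 octamer. A word match is a description of the letters, not a bound site.

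Across the 72 arrays, 40.2 to 67.3% of spots were well above background, and the 1 Gy neutron arrays of day 7 were the dimmest, at 40.2 to 50.3% against 54.3 to 63.9% in the controls of that day and 59.3 to 67.3% after 4 Gy x-rays. Arrays were scanned on 7 dates, and all day 7 controls on a date that held 1 of the 6 day 7 1 Gy neutron arrays and none of the 4 Gy x-ray arrays of that day, so for 4 Gy x-rays on day 7 exposure and scan date cannot be told apart. All 24 red cell and all 18 platelet marker genes were detected, as were 33 of 37 S phase genes and 20 of 26 mitosis genes. Of 19 hepatocyte genes 9 were detected, and their mean level ran from 0.57 to 7.24 in day 1 controls and from 8.16 to 8.99 after 4 Gy x-rays on day 1, against -1.78 to 0.80 in day 7 controls and -0.53 to 4.15 after 1 Gy neutrons on day 7. The part of liver RNA in the day 1 results was not tested. A mouse given 1 Gy x-rays and sampled on day 7 (replicate 5) stood apart from the other 4 in several histone genes, and results that rest on it are given with and without it. Groups were taken from the sample labels of the scanner files, and in the deposited series table, which was not used for the results here, 21 of 72 columns followed the scanner values of an array labelled as another group. Which placement holds was not tested.

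Of the 46 genes, 7 were not detected. Hist3h2bb-ps, a pseudogene, was well above background on 0 of the 72 arrays, Hist1h1d on 3, Hist2h2ab on 4, Hist1h3g on 29, Hist1h2bq on 30, Hist1h2bb on 34 and Hist1h1t, the testis H1, on 46. Hist1h3d was detected on all 72 arrays but varied too little to be tested. No member was saturated. A test was called when limma's moderated test gave a p-value below 0.001 and a false discovery rate below 5% over all 10862 genes. Of the 38 tested members, 26 were called in at least 1 of the 10 comparisons with controls and 12 in none.

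The largest number of histone genes called was on day 7 after 1 Gy neutrons, where 21 of 38 were higher than in controls and 0 lower. At this exposure 25.1% of all genes tested were called higher and 13.3% lower, against 55.3% and 0% of the histone genes. After 4 Gy x-rays on day 7, 8 were higher and 0 lower (9.06% of all genes higher, 8.5% lower). After 1 Gy x-rays on day 7, 1 was higher (3.3% of all genes) and 0 lower (0.709%), and after 0.25 Gy neutrons 0 were called (0.0276% of all genes higher, 0% lower), although 4 had an unadjusted p below 0.05 by limma, all higher. On day 1 the calls were few: 1 higher and 0 lower after 1 Gy neutrons (6.96% of all genes higher, 17.5% called in either direction), 0 and 1 after 1 Gy x-rays (3.09% and 4.56%, 7.65% in all), 1 and 3 after 4 Gy x-rays (16.5% and 18.6%), and 0 after 0.25 Gy neutrons (0.00921% of all genes, with 1 histone gene at an unadjusted p below 0.05). On day 3, 2 were higher after 1 Gy x-rays (1.58% of all genes higher, 0.414% lower) and 0 after 0.25 Gy neutrons (0.543% and 0.626%, with 12 histone genes at an unadjusted p below 0.05). Of the 38 members, 23 lay above 0 in that last comparison. The counts at an unadjusted p below 0.05 have no share of all genes beside them and are no result about the histone genes. On day 1 the share of histone genes called was below that of all genes after 1 Gy neutrons and both doses of x-rays. After 0.25 Gy neutrons 1 of 10862 genes was called, too few to compare the shares. On day 7 after 1 Gy neutrons 55.3% of histone genes and 38.4% of all genes were called in either direction, and after 4 Gy x-rays 21.1% and 17.6%, which lie near each other.

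**Figure D1:**
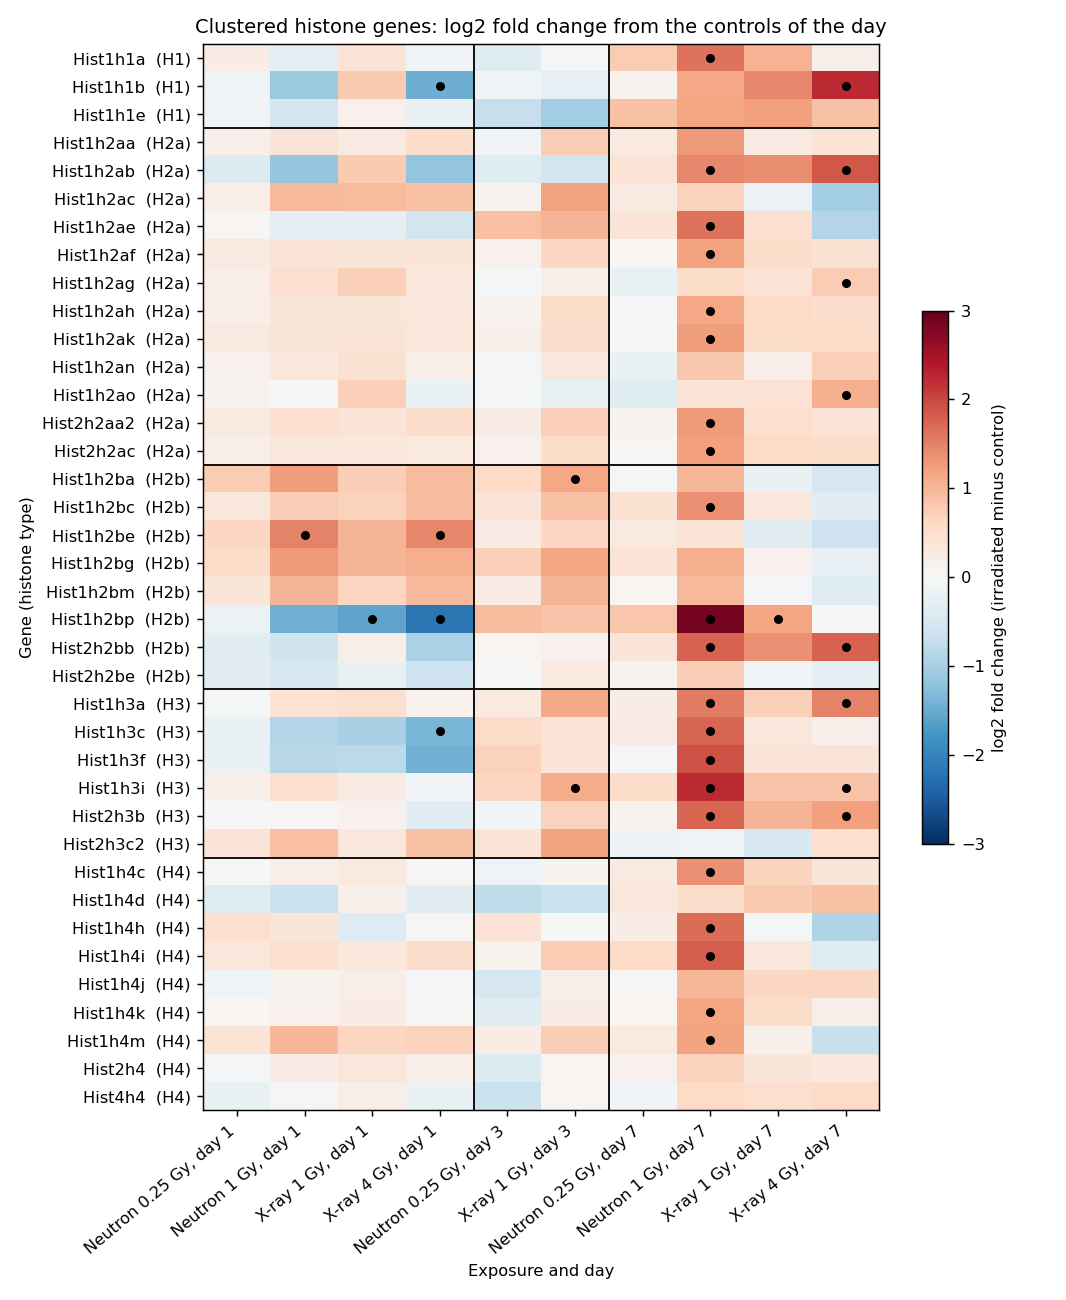
Log2 fold change of each of the 38 tested histone genes (rows, grouped by type) in the 10 comparisons with the controls of the day (columns), with a dot where the gene was called. The column for 1 Gy neutrons on day 7 holds 21 dots, all higher with the arrays centred on their median, and that for 4 Gy x-rays on day 7 holds 8; centred on spike-in probes, 18 of the 21 were below 0.

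The members' median log2 fold change was 1.21 on day 7 after 1 Gy neutrons, where the median of all genes was 0.31, and 0.41 after 4 Gy x-rays, where that of all genes was -0.04. It was 0.49 after 1 Gy x-rays (all genes 0.04) and 0.18 after 0.25 Gy neutrons (0.06). On day 1 it was 0.14, 0.33, 0.33 and 0.09 for neutrons at 0.25 and 1 Gy and then x-rays at 1 and 4 Gy, with all-gene medians of 0.12, 0.05, -0.01 and 0. On day 3 it was 0.53 in the 1 Gy x-ray mice (0) and 0.10 in the mice given 0.25 Gy neutrons (0.03).

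The day 7 result after 1 Gy neutrons depended on how the arrays were put on a common scale, in direction as well as in number. Over the same 38 probes, centred on the array median or on the 75th percentile, 21 genes were called higher and 0 lower. With quantile normalization 11 were higher and 0 lower, and with normexp background correction of the raw spot signal 4 and 0. Centred on the 10 spike-in probes, 1 was higher and 9 were lower, the members' median was -0.69 and that of all genes -1.59, and 98.7% of the genes called on the whole array were lower, against 34.6% with median centring, 50.9% with quantile normalization and 60.6% with normexp. Such shares of all called genes, here and below, come from fits in which each scaling used its own filters, unlike the member counts. With spike-in centring 37 of 38 members still lay above the all-gene median, as they did with median centring, but with normexp only 17 did, with a member median of 0.35 against 0.45 for all genes. Of the 21 called genes, 18 turned negative with spike-in centring and 7 of these, Hist1h2af, Hist1h2ah, Hist1h2ak, Hist1h2bc, Hist1h4k, Hist2h2aa2 and Hist2h2ac, also with normexp. Hist1h2bp, Hist1h3i and Hist1h3f kept a positive value under all 5 scalings. No gene called in the other comparisons with controls changed direction under any of them. The members' median did turn in some of those comparisons. With spike-in centring it was -0.12 and -0.81 after 0.25 Gy neutrons on days 3 and 7. After 1 Gy x-rays it was -0.25 on both days. Of 38 members 13, 0, 10 and 9 then lay above 0, in that order. The all-gene medians were -0.2, -0.94, -0.78 and -0.7.

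**Figure D2:**
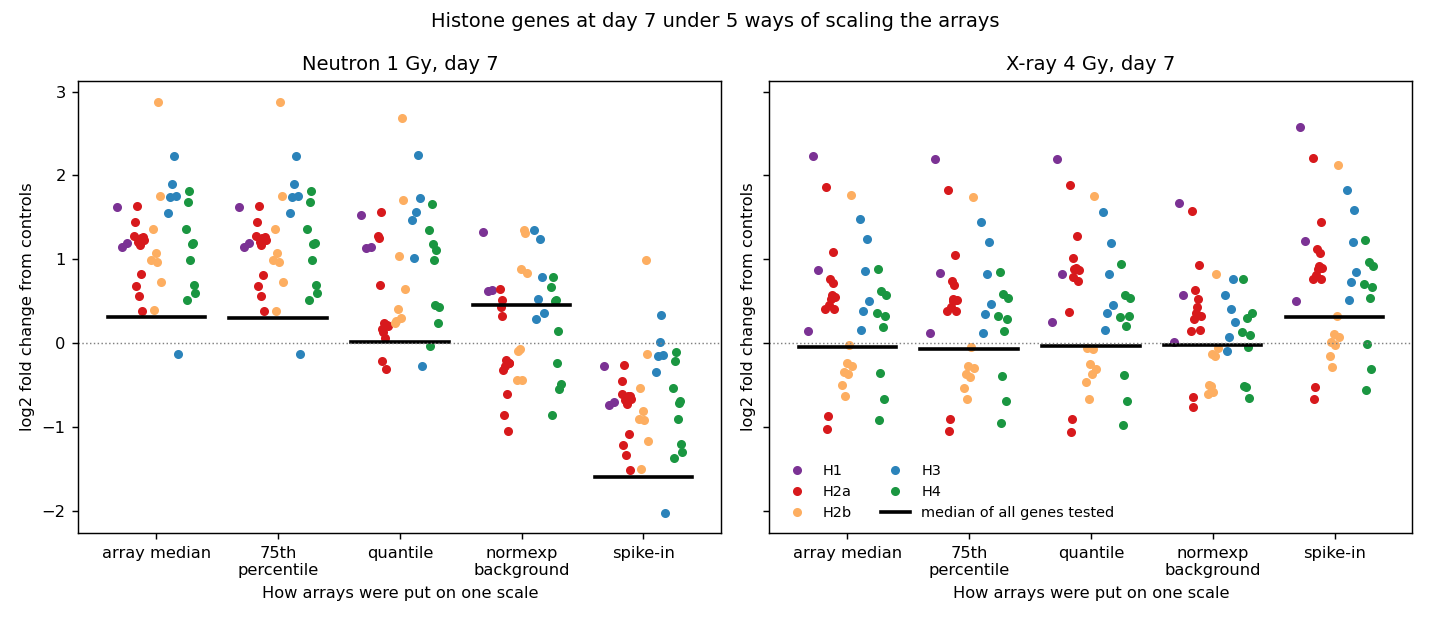
Log2 fold change of the histone genes on day 7 in the 1 Gy neutron and 4 Gy x-ray mice, each point a gene coloured by type, under the 5 ways of scaling the arrays, with a black bar at the median of all genes. After 1 Gy neutrons the member median moved from 1.21 (array median) to 0.35 (normexp) and -0.69 (spike-in probes), while after 4 Gy x-rays it stayed between 0.15 and 0.76.

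Among the H2b genes after 1 Gy neutrons on day 7, 3 of 8 were called, with a type median of 1.04. The counts of this and the other types stand beside 38.4% of all genes called at this exposure. Hist1h2bp, an H2b gene of the large cluster, had the largest change of any member. Its only probe begins at base 505 of its transcript, and which form of its mRNA gave the signal was not tested. Its level ran from -0.82 to 0.15 (median -0.15) in the 6 controls and from 2.01 to 3.03 (median 2.72) in the 6 exposed mice, so that every exposed mouse lay above every control. The mean was 2.63 ± 0.38 (SD, n = 6) against -0.25 ± 0.33 (n = 6), a log2 change of 2.88 (SE 0.21, 7.36-fold, limma adjusted p = 5.89e-07). This gene was called under all 5 scalings, at 2.69 with quantile normalization, 1.35 with normexp and 0.99 with spike-in centring. Hist2h2bb ran from -3.38 to -2.24 (median -2.88) in controls and from -1.72 to -0.52 (median -1.0) in exposed mice, again without overlap, a log2 change of 1.76 (SE 0.23, adjusted p = 2.81e-05) that became -0.13 with spike-in centring. Hist1h2bc rose by 1.36 (SE 0.30, adjusted p = 0.00146), from 5.73 to 7.29 in controls to 7.40 to 8.40, and read -0.09 with normexp and -0.53 with spike-in centring. Hist1h2be, Hist1h2bg, Hist1h2ba, Hist1h2bm and Hist2h2be were not called, with values from 0.40 to 1.08.

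The H3 genes had the highest share called, 5 of 6, and the highest type median, 1.75. Hist1h3i lay between -2.27 and -1.46 (median -1.74) in the controls and between -0.38 and 0.81 (median 0.50) in the exposed mice, without overlap. Its log2 fold change was 2.23 (SE 0.22, 4.69-fold, adjusted p = 3.31e-06), and 2.24, 1.24 and 0.34 with quantile normalization, normexp and spike-in centring. Hist1h3f rose by 1.90 (SE 0.44, adjusted p = 0.00227), with controls from 0.32 to 2.97 and exposed mice from 2.43 to 4.16, so that the groups overlapped, and was 0.01 with spike-in centring. Hist1h3c also overlapped, from 2.76 to 4.64 in controls and from 4.34 to 5.87 in exposed mice, with a change of 1.74 (SE 0.35, adjusted p = 0.000869). Hist2h3b (1.75, SE 0.24, adjusted p = 3.77e-05) and Hist1h3a (1.55, SE 0.23, adjusted p = 6.12e-05) did not overlap. Hist1h3c, Hist2h3b and Hist1h3a read -0.15, -0.14 and -0.34 with spike-in centring. Hist2h3c2, the sixth H3 gene, was at -0.13 and was the only member below 0.

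Of the H2a genes, 7 of 12 were called, with a type median of 1.22. Hist1h2ae led, from -0.68 to 0.82 (median 0.26) in controls and from 1.22 to 2.38 (median 1.75) after exposure, a log2 change of 1.63 (SE 0.28, adjusted p = 0.00026) that read -0.26 with spike-in centring. Hist1h2ab ran from 0.54 to 1.97 in controls and from 2.27 to 3.08 in exposed mice, a change of 1.44 (SE 0.26, adjusted p = 0.000351; -0.45 with spike-in centring). The 5 genes whose stop-codon probes are printed above had values within 0.10 of each other. They were Hist2h2aa2 at 1.27 (SE 0.20), Hist1h2ak at 1.26 (SE 0.18), Hist2h2ac at 1.23 (SE 0.19), Hist1h2af at 1.21 (SE 0.20) and Hist1h2ah at 1.17 (SE 0.20), with limma adjusted p from 5.93e-05 to 0.000211, and every exposed mouse lay above every control for each. All 5 were negative with normexp (-0.20 to -0.32) and with spike-in centring (-0.63 to -0.72). A second Hist1h2ak probe, listed against 1 RefSeq transcript, gave 0.45, where the chosen probe, listed against 4, gave 1.26. The rise of 1.26 is thus uncertain as a value of Hist1h2ak.

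Of the H4 genes, 5 of 9 were called, with a median of 1.18. Hist1h4i ran from 2.38 to 3.80 (median 3.31) in controls and from 4.35 to 5.33 (median 5.03) in exposed mice, without overlap, a change of 1.81 (SE 0.28, adjusted p = 0.000152), and its second probe gave 1.48. One of the 6 exposed arrays had no usable spot for the chosen Hist1h4i probe and was left out of its fit. Hist1h4h rose by 1.68 (SE 0.33, adjusted p = 0.000703), with controls from -1.80 to 0.09 and exposed mice from -0.29 to 1.20. Hist1h4c (1.36, SE 0.24), Hist1h4m (1.20, SE 0.28) and Hist1h4k (1.18, SE 0.25) followed, and of these 3 Hist1h4m and Hist1h4k overlapped with controls. All 5 lay below 0 with spike-in centring, from -0.11 to -0.71. A second Hist1h4k probe gave 0.87 with median centring. Of the H1 genes, which encode the linker histone, Hist1h1a was called at 1.62 (SE 0.22, adjusted p = 3.2e-05), from -3.89 to -2.94 in controls and from -2.33 to -1.23 in exposed mice, and it was well above background on 5 of the 6 exposed arrays. Hist1h1b at 1.15 (SE 0.28, adjusted p = 0.00307) and Hist1h1e at 1.19 (SE 0.29, adjusted p = 0.003) were not called.

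Of the 38 members, 20 had every exposed mouse above every control at this exposure and 0 every mouse below, where 23.1% of all genes had all mice above and 13.8% all below. For the 1 exposed array scanned with the controls, the member median was 1.18 against 0.34 for all genes, and all 37 members with a value lay above 0. Within that date Hist1h2bp was at 2.64 and Hist1h3i at 2.07. With scan date as a block in the fit, which this 1 array then decides, 4 members were called.

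After 4 Gy x-rays on day 7, 8 members were called and they were a narrower set. Hist1h1b, a linker histone gene, rose most. It ran from -2.00 to -0.10 (median -0.75) in controls and from 0.99 to 1.64 (median 1.33) in the 6 exposed mice, a log2 change of 2.23 (SE 0.28, 4.69-fold, adjusted p = 6.42e-05). Hist1h2ab rose by 1.86 (SE 0.30, adjusted p = 0.000498), from 0.54 to 1.97 in controls to 2.22 to 3.64. Hist2h2bb rose by 1.77 (SE 0.22, adjusted p = 6.83e-05), to between -1.72 and -0.76. No mouse of either group overlapped the other for these genes.

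Hist1h3a (1.48, SE 0.23), Hist2h3b (1.24, SE 0.22), Hist1h2ao (1.09, SE 0.23), Hist1h3i (0.86, SE 0.20) and Hist1h2ag (0.77, SE 0.17) completed the set, with limma adjusted p from 0.000366 to 0.00512 and every exposed mouse above every control. By type, 3 of 6 H3 genes, 3 of 12 H2a, 1 of 3 H1, 1 of 8 H2b and 0 of 9 H4 genes were called, beside 17.6% of all genes. The H2b median was -0.30, the only type below 0, and Hist2h2bb was the only H2b gene above 0. Hist1h2bp, the leading gene after neutrons, ran from -0.86 to 0.19 after 4 Gy x-rays and was not called (-0.02, SE 0.23, adjusted p = 0.953). Hist1h2ac had the lowest value, -1.02, and was not called (adjusted p = 0.0683). All 8 non-overlapping members were higher and 0 lower, against 9.34% and 8.76% of all genes. These directions held under all 5 scalings, with 6 called by the 75th percentile, 13 with quantile normalization, 2 with normexp and 13 with spike-in centring. Of all genes called, 48.4% were lower with median centring, 61.8% with normexp and 16.9% with spike-in centring.

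After 1 Gy x-rays on day 7 only Hist1h2bp was called. It was at 1.22, 0.87, 0.68, 1.39 and 0.50 in the 5 exposed mice, all above the controls, a log2 change of 1.18 (SE 0.22, adjusted p = 0.00901) that stayed positive under all 5 scalings. Hist1h3i also lay above the controls in all 5 mice (0.85, SE 0.21, adjusted p = 0.0305) but was not called, and these were the 2 members with all mice above, against 5.1% of all genes. The mouse that stood apart raised the means of many other members. Hist1h2ab was at 2.25, 1.93, 1.79, 1.36 and, in that mouse, 5.75. Hist1h1b was at 0.40, 0.00, -0.22, -1.30 and 3.82, and Hist2h2bb at -1.83, -1.72, -2.61, -2.33 and 0.98. It was also the highest of the 5 for Hist1h2ao (8.14, group median 5.30), Hist1h2ag (8.18, 5.61), Hist1h2an (7.66, 4.97), Hist1h4d (7.01, 4.54) and Hist1h1a (-0.39, -2.94). In the same mouse the mean level of the mitosis genes was 1.85 against -0.17 to 0.19 in the other 4, and that of the hepatocyte genes was 5.58, the highest of the group. Their part in the result was not tested. Without this mouse 1 member was called and the member median went from 0.49 to 0.31. With spike-in centring 0 members were higher and 1 lower, and 98.2% of all called genes were lower against 17.7% with median centring. The 1 Gy x-ray arrays shared no scan date with the controls. Red cell markers moved with this comparison, 13 of 23 higher and 0 lower (3.3% and 0.709% of all genes), with a mean level of 3.09 to 3.98 in exposed mice and 1.98 to 2.70 in controls, and their part in the result was not tested. After 0.25 Gy neutrons on day 7 Hist1h2bp was at 0.42, 0.68, 0.74, 0.63 and 0.44, again above every control, but its difference of 0.83 (SE 0.17, adjusted p = 0.0518) was not called. It was the only member with all mice above, against 4.21% of all genes. The direction at this exposure depended on the scaling. With spike-in centring 0 of the 38 members lay above 0, so that Hist1h2bp did not either, and 2 were called lower. The member median was then -0.81 (all genes -0.94), and with normexp it was -0.12 (0.19).

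On day 1 the called genes were few and moved both ways. Hist1h2be, an H2b gene whose probe lies past base 500 of its transcript, was at 0.05, 0.31, -0.08, 0.48 and -0.03 in the 5 controls, and at 2.38, 1.22, 0.69, 1.81 and 1.89 in the 5 mice given 4 Gy x-rays, all above the controls (1.45, SE 0.30, adjusted p = 0.00138). In the 1 Gy neutron mice it ran from 0.26 to 2.21 (median 1.94), a rise of 1.49 (SE 0.33, adjusted p = 0.00429) with overlap. Hist1h2bp, whose probe also begins past base 500, went the other way. It was at -0.67, -0.67, -0.72, -0.35 and -0.20 in controls and at -2.10, -3.19, -3.63, -2.06 and -2.56 after 4 Gy x-rays, a log2 change of -2.18 (SE 0.31, adjusted p = 0.000146). After 1 Gy x-rays it ran from -2.66 to -1.27 and fell by 1.58 (SE 0.25, adjusted p = 0.00256). In the 1 Gy neutron mice it ran from -3.17 to -0.89 and was not called (-1.44), although all 6 mice lay below the controls.

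Hist1h1b and Hist1h3c also fell on day 1 after 4 Gy x-rays. Hist1h1b was at -0.56, -1.62, -1.38, -0.91 and -1.38 in controls and at -2.13, -2.94, -3.71, -2.32 and -2.06 in exposed mice (-1.46, SE 0.34, adjusted p = 0.00267). Hist1h3c was at 2.81, 3.04, 3.37, 3.57 and 3.67 in controls and at 2.65, 1.55, 1.34, 2.30 and 1.75 in exposed mice (-1.37, SE 0.29, adjusted p = 0.00145). For both, and for Hist1h2bp, every exposed mouse lay below every control. Of the 38 members 3 had all mice below and 2 all above at this exposure, against 23.5% and 20.8% of all genes. The H2b median was 0.93 and the medians of the other types lay between -0.20 and 0.31. The day 1 controls shared no scan date with either x-ray group, so for these exposure and scan date cannot be told apart. Centred on the 75th percentile or after quantile normalization, Hist1h2be was no longer called at this exposure and the 3 lower genes were, and the share of all called genes that were lower went from 53.1% to 63.5% and 66.2%. For 1 Gy x-rays that share was 59.6% and became 72.3% with quantile normalization, 100% with normexp and 34% with spike-in centring. After 1 Gy neutrons these scalings gave 0 higher and 2 lower and spike-in centring 9 higher and 0 lower, and the share of all called genes that were lower went from 60.2% to 67.8% and 73.6% with the 75th percentile and quantile normalization and to 13.5% with spike-in centring.

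On day 3, 2 genes rose after 1 Gy x-rays. Hist1h2ba, an H2b gene best known from testis, was at 4.44, 4.2, 4.14, 4.30 and 4.03 in controls and at 5.15, 5.67, 5.30, 5.68 and 5.06 in exposed mice (1.15, SE 0.20, adjusted p = 0.0365). Its probe lists a transcript cluster that the Hist1h2bg probe also lists, so these values are uncertain as values of Hist1h2ba alone. Hist1h3i was at -1.81, -2.09, -2.26, -1.91 and -2.34 in controls and at -0.64, -0.80, -1.27, -1.14 and -0.96 in exposed mice (1.12, SE 0.20, adjusted p = 0.037). Neither overlapped. Both calls were lost with quantile normalization, normexp or spike-in centring, where 0 members were called (99.7% of all called genes were lower with spike-in centring, 20.7% with median centring), and 0 were called without replicate 2 of the exposed mice. In all, 6 members had every mouse above the controls and 1 every mouse below (5.88% and 2.99% of all genes). The controls and the 1 Gy x-ray mice of day 3 shared no scan date, so the exposure and the date cannot be told apart. Platelet markers moved with this comparison: 6 of 18 were called higher (1.58% of all genes), with a list level from 4.07 to 5.35 in exposed mice and from 3.48 to 3.90 in controls. Of 23 red cell markers 4 were higher and 0 lower, at 2.15 to 3.34 against 1.69 to 2.21. The part of either in the result was not tested.

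**Figure D3:**
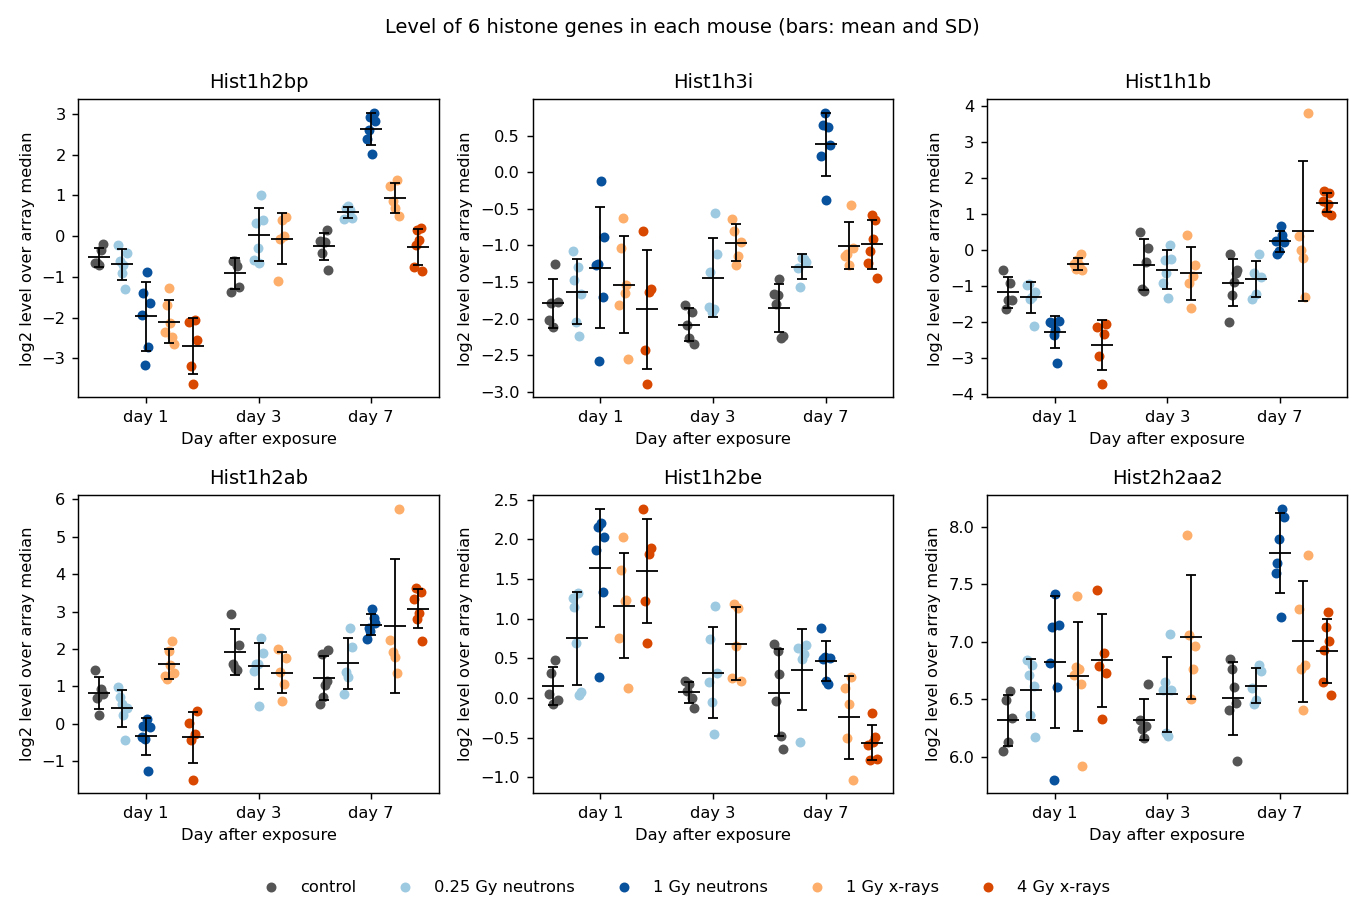
Level (log2 signal minus the array median) of 6 histone genes in every mouse, by exposure and day, with bars at the mean and SD of each group. Hist1h2bp lies below its day's controls on day 1 after 1 Gy and 4 Gy and above them on day 7 after 1 Gy of either radiation, while Hist1h1b and Hist1h2ab are highest in the 1 Gy x-ray mouse of day 7 that stood apart.

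The change between the days was tested as the difference of the effects on day 7 and day 1. After 1 Gy neutrons 12 members were called and all were more positive on day 7 (21.4% of all genes more positive, 7.25% more negative), with a member median of 0.90 against 0.10. They comprised 3 of 3 H1, 4 of 6 H3, 3 of 8 H2b, 2 of 12 H2a and 0 of 9 H4 genes. Hist1h2bp had the largest difference, 4.32 (SE 0.42, adjusted p = 7.27e-08), followed by Hist1h3f (2.73, SE 0.66), Hist1h3c (2.63, SE 0.52), Hist1h2ab (2.59, SE 0.38) and Hist2h2bb (2.35, SE 0.43). With spike-in centring 8 of the 12 turned negative, and 22 members were called more negative and 1 more positive. Of all genes called, 25.3% were more negative with median centring, 64.6% with normexp and 98.2% with spike-in centring. After 4 Gy x-rays 5 were more positive (12.4% of all genes) and 1 more negative (9.94%). Hist1h1b led at 3.69 (SE 0.44, adjusted p = 2.9e-06), then Hist1h2ab (3.05, SE 0.47), Hist2h2bb (2.73, SE 0.43), Hist1h2bp (2.17, SE 0.38) and Hist2h3b (1.56, SE 0.35), and Hist1h2be was the gene that was more negative (-2.08, SE 0.38, adjusted p = 0.000254). After 1 Gy x-rays only Hist1h2bp was called, at 2.76 (SE 0.33, adjusted p = 1.01e-05; 6.83% of all genes more positive, 1.85% more negative, 8.68% in all). The x-ray calls kept their direction under all 5 scalings, and the share of all called genes that were more negative after 4 Gy went from 44.5% to 30.2% with quantile normalization and 22.6% with spike-in centring.

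Neutrons and x-rays were also compared directly on the same day. On day 7, 1 Gy neutrons gave 4 members higher and 0 lower than 1 Gy x-rays (17.3% and 5.67% of all genes): Hist1h4h by 1.75, Hist1h2bp by 1.70, Hist1h4i by 1.48 and Hist1h3i by 1.38. Without the x-ray mouse that stood apart 8 were higher. With quantile normalization 3 were higher and with spike-in centring 0, and 50.8% and 99.5% of all called genes were then lower, against 24.7% with median centring. Within the scan dates that held both groups, the member median was 0.92 (1 neutron and 4 x-ray arrays; all genes 0.37) and 0.86 (4 and 1 arrays; 0.22), against 0.71 over all arrays (0.34). Against 4 Gy x-rays, 19 members were higher and 2 lower (31% and 10.9% of all genes, 41.9% in all), among them 7 of 8 H2b and 5 of 9 H4 genes. Hist1h2bp was higher by 2.90 (SE 0.24, adjusted p = 6.87e-07), Hist1h4h by 2.60 (SE 0.24) and Hist1h2ae by 2.50 (SE 0.26), and Hist1h1b was lower by 1.08 on the log2 scale.

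These differences from 4 Gy x-rays depended on the scaling, and 16 of the 21 called members changed direction with spike-in centring. With spike-in centring 0 members were higher and 26 lower than after 4 Gy x-rays, where 98.8% of all called genes were lower against 26% with median centring, and with quantile normalization 12 were higher and 8 lower and with normexp 2 and 2. Within the scan date that held 1 neutron and 6 x-ray arrays the member median was 1.03, against 0.31 for all genes. On day 1, 1 Gy neutrons differed from 1 Gy x-rays in 2 members, both lower (7.72% of all genes lower, 1.33% higher, 9.05% in all). Hist1h2ab ran from -1.25 to 0.13 after neutrons and from 1.21 to 2.22 after x-rays (-1.94, SE 0.26, adjusted p = 0.000914), and Hist1h1b from -3.12 to -1.96 and from -0.56 to -0.11 (-1.89, SE 0.21, adjusted p = 0.000439). Neither overlapped. Between 1 Gy neutrons and 4 Gy x-rays on day 1, 0 members were called by limma (0.0552% of all genes higher, 0% lower) and 0 had an unadjusted p below 0.05, with differences from -0.38 to 0.74. The doses of this last pair and of the day 7 pair with 4 Gy differ. As the paper describes them, the neutron beam also carried gamma rays and delivered its dose more slowly than the x-rays. Sham exposure is described only on the neutron wheel. In these comparisons, and in those of x-rays with controls, radiation type, dose rate and handling cannot be told apart.

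Other genes of the histone and replication pathways and marker genes of blood cells were taken from fixed lists. On day 7 after 1 Gy neutrons 25.1% of all genes were called higher and 13.3% lower. Of the mitosis genes, 8 of 19 were higher and 0 lower with a median of 0.64, among them Ccna2 (2.95, SE 0.26), Ube2c (2.94, SE 0.23) and Mki67 (2.45, SE 0.30). The S phase genes did not move one way: 3 of 26 were higher and 7 lower, with Lig1, the ligase that joins replicated fragments, higher by 2.52 (SE 0.22) and Pold1, a DNA polymerase subunit, lower (-1.62, SE 0.16). Of 10 histone chaperones 4 were higher and 2 lower, among them Asf1b (1.91, SE 0.18) and Rbbp4 (2.49, SE 0.23), and of 9 replication-independent histone genes 5 were higher and 2 lower, among them H3f3a (1.76, SE 0.23). Of 8 regulators of histone mRNA, 1 was higher and 2 lower, Cpsf2, a 3′ end processing factor, by -1.14 (SE 0.14) and Pou2f1 by -1.11 (SE 0.16). With spike-in centring the medians of the mitosis, chaperone and replication-independent lists turned negative, to -1.26, -1.79 and -1.08.

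After 4 Gy x-rays on day 7, 16 of 19 mitosis genes were higher and 0 lower, with a median of 1.67, and 9 of 26 S phase genes were higher and 1 lower, and both medians stayed positive under all 5 scalings. At that exposure 9.06% of all genes were higher and 8.5% lower. Mki67 rose by 3.14 (SE 0.31) and Asf1b by 1.83 (SE 0.16). On day 1 after the same dose 0 mitosis genes were higher and 10 lower, 12 of 26 S phase genes were lower and 2 higher, and 6 of 10 chaperones were lower and 0 higher, against 3 lower and 1 higher of 38 clustered histone genes. Of all genes, 18.6% were then lower and 16.5% higher. The S phase genes that were higher, Mcm10 (4.60, SE 0.65) and Tk1 (2.69, SE 0.33), had the largest changes of their list.

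Red cell markers moved with the day 7 neutron result, where 25.1% of all genes were called higher and 13.3% lower. Of 23 tested, 21 were higher and 0 lower, with a median of 2.78 (0.89 with spike-in centring), and their mean level was 4.08 to 5.08 in exposed mice and 1.98 to 2.70 in controls. After 4 Gy x-rays on day 7 10 of 23 were higher (9.06% of all genes), with a level of 2.89 to 3.98, and on day 1 after 4 Gy 15 were lower (18.6% of all genes), at -0.58 to 0.94 against 1.92 to 2.81. Of the neutrophil markers, 5 of 14 were higher and 0 lower after 1 Gy neutrons on day 7, beside 25.1% and 13.3% of all genes. Their level was 2.70 to 3.49 against 1.53 to 1.98 in controls (median 1.24, and -0.65 with spike-in centring). After 4 Gy x-rays 4 were higher (9.06% of all genes), at 2.01 to 3.09. Platelet markers were at 3.65 to 4.16 after 1 Gy neutrons on day 7 and 2.23 to 4.11 in controls, with 1 of 18 called (38.4% of all genes). On day 1 they were at 4.34 to 6.04 after 1 Gy neutrons and 4.12 to 5.59 after 4 Gy x-rays, against 3.69 to 4.54 in controls. Hepatocyte markers were at -1.50 to 7.44 after 4 Gy x-rays on day 7. B cell markers were lower in 11 of 14 genes after 1 Gy neutrons (13.3% of all genes) and in 13 of 14 after 4 Gy x-rays (8.5%) on day 7. The part of these cell types in the histone results was not tested.

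Mice of the same group also differed among themselves, and the histone genes followed different marker lists there. With group means removed over the 72 arrays, and p from 100000 permutations within groups, 494 relations were computed between 38 members and 13 lists, all sharing the array centring. Hist1h2bp followed the red cell markers, with Pearson's r = 0.89 and Spearman's rho = 0.89 (permutation p = 1e-05 for both, the smallest these permutations can give, adjusted p = 9e-05). Its r was 0.87 without the 2 arrays farthest from the median and 0.87 within group and scan date. Hist1h2ac followed the platelet markers (r = 0.89, rho = 0.89, permutation p = 1e-05 for both, adjusted p = 9e-05, r = 0.88 without the 2 farthest and 0.89 within scan date). Hist1h2ao followed the mitosis genes (r = 0.84, rho = 0.79, permutation p = 1e-05 for both, adjusted p = 9e-05, r = 0.77 without the 2 farthest, of which 1 was the x-ray mouse that stood apart, and 0.85 within scan date). By the list with the highest r, 15 members went with platelet markers (r from 0.51 to 0.89), 13 with mitosis (0.46 to 0.84) and 5 with red cell markers (0.30 to 0.89), leaving out the replication-independent histone list. Members with near-identical probes are not separate here, and Hist2h2aa2 went with platelet markers (0.55) but Hist1h2ak with mitosis (0.59). Within group and slide the r of every mitosis member was lower, from 0.34 (Hist1h1a) to 0.75 (Hist1h2ao). The examples Hist1h2bp, Hist1h2ac and Hist1h2ao were chosen after their values were seen, and the causes of the relations were not tested.

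**Figure D4:**
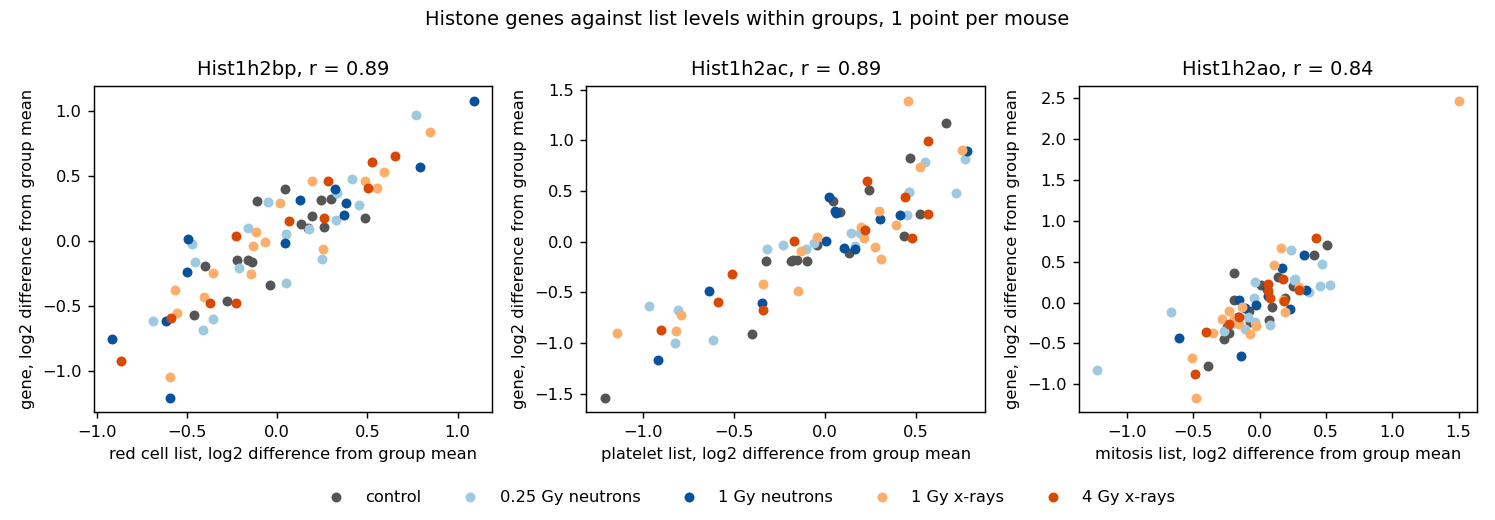
Deviation of a histone gene from its group mean (log2) against the deviation of a marker list's mean level in the same array, for Hist1h2bp and red cell markers, Hist1h2ac and platelet markers, and Hist1h2ao and mitosis genes, each point 1 of 72 arrays. All 3 relations were positive, with r of 0.89, 0.89 and 0.84.

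The values also differed with where a probe lay on its transcript, in a grouping of the 35 core histone probes made with the results known. Of 5 probes that held stem-loop bases and began within the first 500 bases, 4 were called higher after 4 Gy x-rays on day 7 (median 1.48), against 0 of 8 that began past base 500 (median -0.31) and 3 of the 22 others (0.44). Of all genes, 9.06% were higher. After 1 Gy neutrons the counts were 5 of 5 (1.55), 3 of 8 (0.90) and 12 of 22 (1.19), beside 25.1% of all genes. The 8 that began past base 500 included Hist1h2bp, Hist1h2be, Hist1h2bc, Hist1h2ac and Hist1h2ae. Both genes were tested in 3 pairs transcribed away from a shared promoter. Hist1h2an and Hist1h2bp, whose starts lie 238 bases apart, were at 0.82 and 2.88 on day 7 after 1 Gy neutrons and at 0.20 and -2.18 on day 1 after 4 Gy x-rays. Hist1h2ae and Hist1h2bg, 178 bases apart, were at 1.63 and 1.08, and at -0.56 and 1.08, in the same comparisons. Hist1h2aa and Hist1h2ba, 279 bases apart, were at 1.28 and 0.99, and at 0.56 and 0.94. The Hist1h2an probe is listed against 4 RefSeq transcripts, and the Hist1h2bp, Hist1h2ae and Hist1h2bg probes begin past base 500. Whether the paired transcripts themselves differed was not tested.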

How the data were processed

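Blood RNA of 72 mice was hybridised in 1 colour (Cy3) to Agilent mouse arrays with probe positions on mm9, 1 mouse per array. The authors deposited the scanner output of Feature Extraction 12.0.2, with the spot intensity as background-corrected processed signal, beside the mean spot and background signal. They also deposited a series table of log2 values, of which 12 of 72 columns followed their own array's scanner values and 60 those of another array (21 an array of another group), so it served only as an alternative. Array totals give no read depth, and the number of arrays limits the precision.

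Spots flagged as non-uniform or outlying were dropped, spots of the same probe averaged, and log2 processed signal was centred on the median of each array's detected probes. Probes dim or flagged on 25% or more of the day 1 and day 7 spots were left out, as were those 1.5-fold or more from their median on too few of those arrays (under 20%). The brightest probe stood for a gene, which left 10862 genes. Groups came from the sample labels. limma 3.58.1 (R 4.3.3) was fitted to the groups compared, with a call at p below 0.001 and Benjamini-Hochberg false discovery rate below 5% over all genes. Of each histone type up to 6 genes called against controls, those with the largest change, and of each other list at most 4 called genes per comparison were named, and any other gene named was chosen after its values were seen. The members, lists and tests were chosen with earlier results of these data known. In simulated data 39% of changes of 1 and 90% of changes of 2 on the log2 scale were recovered in the day 7 comparison of 1 Gy neutrons with controls (10862 genes). Alternatives were other scalings, background correction, filters, probe averages, blocks, another variance test, and leaving out each mouse in turn. Between mice sharing a replicate number the deviations correlated from -0.55 to 0.64. In no comparison were all pairs above 0.1, but all 5 were positive after 1 Gy x-rays on day 7 (0.06 to 0.42). The labels do not say that the mice shared litters, and p-values measure the spread between these samples.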

Additional observations from a re-analysis of the deposited data

Results flagged for a closer look

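In 13 of 299 gene and group combinations tested, 1 mouse lay far from the rest of its group, where chance flags about 1 in 20. In the x-ray mouse (1 Gy) of day 7 that stood apart, Hist1h2ab was at 5.75 (nearest other mouse 2.25) and Hist2h2bb at 0.98 (nearest -1.72). In the 0.25 Gy neutron group of day 7, replicate 2 had Hist1h2be at -0.55 (nearest 0.49) and Hist1h2ba at 3.80 (nearest 4.77). In the 1 Gy neutron group of day 7, replicate 4 had Hist1h3c at 4.34 (nearest 5.37) and Hist1h4m at 1.20 (nearest 1.90). Replicate 1 of the x-ray mice (4 Gy) of day 7 had Hist1h3f at 0.76 (nearest 2.04). On day 1, Hist1h2bc was at 6.37 in a 1 Gy neutron mouse (nearest 7.70), and Hist1h1b was at -3.12 in another (nearest -2.34) and at -2.11 in a 0.25 Gy neutron mouse (nearest -1.34). Hist1h4c was at -1.35 in an x-ray mouse (1 Gy) of day 1 (nearest -0.56) and at -0.47 in a day 3 control (nearest -0.87), and Hist1h2ak was at 6.37 in another day 3 control (nearest 5.98).

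The effect of exposure differed between day 7 and day 1, by the limma test of that difference, in 12 members after 1 Gy neutrons, 1 after x-rays (1 Gy) and 6 after x-rays (4 Gy). The largest differences were 4.32 for Hist1h2bp after 1 Gy neutrons, 2.76 for Hist1h2bp after x-rays (1 Gy) and 3.69 for Hist1h1b after x-rays (4 Gy).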

How the results depend on the processing

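The counts of members called after 0.25 Gy neutrons on day 1 and day 3 and between 1 Gy neutrons and x-rays (4 Gy) on day 1 were 0 under every alternative run. Another variance test and the mean of a gene's probes moved no count by over 1.5 times. Counts that did move are given with the reported count in brackets; the cause was not tested. Each setting used its own filters, which left 35 members tested with normexp and 34 with quantile normalization, so these counts differ from those over the same 38 probes, where quantile normalization gave 13 after x-rays (4 Gy) on day 7 (8, and 9 with its own filters).

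With normexp, 0 members were called after 1 Gy neutrons on day 1 (1), 0 after x-rays (1 Gy) on day 1 (1), day 3 (2) and day 7 (1), 1 after x-rays (4 Gy) on day 1 (4), 4 after 1 Gy neutrons on day 7 (21), 2 after x-rays (4 Gy) on day 7 (8), 1 between 1 Gy neutrons and x-rays (1 Gy) on day 1 (2), 2 between 1 Gy neutrons and x-rays (4 Gy) on day 7 (21), and 1 (12) and 2 (6) for the day 7 minus day 1 effects of 1 Gy neutrons and x-rays (4 Gy). Quantile normalization gave 2 after 1 Gy neutrons on day 1, 0 after x-rays (1 Gy) on day 3, 11 after 1 Gy neutrons on day 7 and 10 for the x-ray effect (4 Gy). The 75th percentile gave 2 after 1 Gy neutrons on day 1 and 1 after 0.25 Gy neutrons on day 7 (0). Spike-in centring with its own filters gave 9 after 1 Gy neutrons and 2 after x-rays (1 Gy) on day 1, 0 after x-rays (1 Gy) on day 3, 4 after 0.25 Gy and 11 after 1 Gy neutrons on day 7, 15 after x-rays (4 Gy) on day 7, 1 between 1 Gy neutrons and x-rays (1 Gy) on day 7 (4), and 24, 6 (1) and 11 for the effects of 1 Gy neutrons, x-rays (1 Gy) and x-rays (4 Gy).

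After 1 Gy neutrons on day 7 the direction turned with normexp for Hist1h2bc (-0.09), Hist2h2aa2 (-0.24), Hist1h2ak (-0.20), Hist2h2ac (-0.24), Hist1h2af (-0.32), Hist1h2ah (-0.27) and Hist1h4k (-0.23). With spike-in centring it turned for Hist1h2bc (-0.53), Hist2h3b (-0.14), Hist1h3c (-0.15), Hist1h3a (-0.34), Hist2h2aa2 (-0.63), Hist1h2ak (-0.63), Hist2h2ac (-0.66), Hist1h2af (-0.68), Hist1h4i (-0.11), Hist1h4h (-0.21), Hist1h4c (-0.53), Hist1h4m (-0.69), Hist1h4k (-0.71), Hist1h1a (-0.27), Hist1h2ab (-0.45), Hist1h2ae (-0.26), Hist1h2ah (-0.72) and Hist2h2bb (-0.13).

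Without the variation filter 3 were called after 1 Gy neutrons and 3 after x-rays (1 Gy) on day 1, and 1 after 0.25 Gy neutrons on day 7. Without the detection filter 2 were called after 1 Gy neutrons on day 1 and 0 after x-rays (1 Gy) on day 3. With dim spots missing, 2 were called after x-rays (1 Gy) on day 1, 8 after 1 Gy neutrons on day 7, 1 and 13 in its day 7 comparisons with 1 and x-rays (4 Gy), and 6 for its day 7 minus day 1 effect. With the replicate number as a block, 0 were called after 1 Gy neutrons on day 1, 13 after 1 Gy neutrons and 0 after x-rays (1 Gy) on day 7, 1 between these, and 3 for the x-ray effect (1 Gy); the mice share only a number. With scan date as a block, random where no date was shared, 0 were called after 1 Gy neutrons and after x-rays (1 Gy) on day 1 and 0 between them, 11 after x-rays (1 Gy) on day 3, 4 after 1 Gy neutrons and 2 after x-rays (1 Gy) on day 7, 2 between these, 9 between 1 Gy neutrons and x-rays (4 Gy) on day 7, and 1 for the 1 Gy neutron effect. Scan date could not be fitted for x-rays (4 Gy) against controls on day 7. With slide as a random block, chosen after seeing the data, 6 were called after 1 Gy neutrons on day 1 and 4 after x-rays (1 Gy) on day 3.

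Leaving out each mouse in turn gave 0 to 7 calls after 1 Gy neutrons on day 1 (7 without replicate 3, 0 without control replicate 1), 1 to 7 after x-rays (1 Gy) on day 1 (7 without replicate 6), 1 to 5 after x-rays (4 Gy) on day 1 (1 without control replicate 3), and 0 to 6 after x-rays (1 Gy) on day 3 (6 without replicate 1, 0 without replicate 2). On day 7 it gave 0 to 1 after 0.25 Gy neutrons (1 without replicate 1), 17 to 25 after 1 Gy neutrons, 1 to 1 after x-rays (1 Gy) and 5 to 10 after x-rays (4 Gy) (5 without control replicate 3). Between 1 Gy neutrons and x-rays it gave 2 to 3 on day 1 with 1 Gy, 4 to 9 on day 7 with 1 Gy (9 without neutron replicate 4) and 17 to 26 on day 7 with 4 Gy. The day 7 minus day 1 effects gave 9 to 13 for 1 Gy neutrons, 1 to 1 for x-rays (1 Gy) and 6 to 10 for x-rays (4 Gy) (10 without control replicate 5 of day 7). The 1 Gy neutron arrays of day 7 were nearest to background, which limits their precision.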
